A study of Rattus norvegicus with 4 samples.

Results

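The genes described here are the semaphorins, plexins, neuropilins, ephrins, Eph receptors, Slits and Robos of the rat anterior pituitary. They were chosen by symbol, and a gene counted as a member when at least 1 UMI was found in 10 or more cells. Of 60 matching symbols among 30058 genes, 54 passed, and they comprise 30 ligand genes and 24 receptor genes. The 6 that did not pass were Epha6 (8 cells), Sema5b, Epha10, Robo3 and Plxnb3 (3 cells each) and Robo4 (0 cells). The members nearest to the minimum were Epha8 with 21 cells and Sema7a with 22 cells.

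These families are the main guidance cues of growing axons and vessels. Class 3 semaphorins are secreted and bind neuropilins, which signal through plexins, whereas the other semaphorin classes are held in the membrane and bind plexins directly. Ephrin-A proteins are tethered by a lipid anchor and ephrin-B proteins span the membrane. Both bind Eph receptor tyrosine kinases on a neighbouring cell, and signals can pass into either cell. Slits are secreted and bind Robo receptors.

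Single-cell RNA sequencing (10X Genomics, 3′ chemistry) was done on dispersed anterior pituitary cells of Sprague Dawley rats, with the other lobes removed. Each sex was 1 pool of 4 untreated animals, at postnatal day 44 for the females, which were in diestrus, and at postnatal day 59 for the males, and each pool was run on 2 lanes. The lanes are technical replicates. The p-values of sex, and of its interaction with type, therefore measure the spread between lanes of a pool. Those between types come from sums per type and sex. Their error is how the levels of types differ between the female and male pools beyond a shared sex term. Sex cannot be told apart from pool and age. Cell types were set by the marker genes of the study, and 6842 of 7861 cells were used, 3304 female and 3538 male: 2314 folliculostellate cells (FSC), 793 corticotrophs (C), 239 gonadotrophs (G), 85 thyrotrophs (T), 1886 somatotrophs (S), 484 lactotrophs (L), 132 endothelial cells (EC), 548 leukocytes (Le) and 361 erythrocytes (E). C, G, T, S and L are together the hormone-producing cells (HPC).

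The labels of EC, Le and FSC were checked against genes that did not set them. The endothelial cadherin Cdh5 stood at 442 CPM (UMIs of a gene per 1000000 UMIs of the type) in EC and at 0.634 CPM in FSC, and the leukocyte gene Ptprc at 202 CPM in Le and 0.106 CPM in FSC. Vim was at 869 CPM in FSC, at 79.6 CPM in T and at 2.996 to 7.64 CPM in C, G, S and L. It was also at 1281 CPM in EC and 516 CPM in Le, so it parts FSC from HPC only. S100b, at 1225 CPM in FSC, was among the genes that set that type. Gh1, at 300400 CPM in S, was also found at 2541 to 4486 CPM in the other 7 types with nuclei. Whether this was free RNA or RNA of mixed cells was not tested. E held 7 ligand and 7 receptor UMIs in all, after globin was set aside, and is left out of the comparisons of types below. Between lanes, the used cells held 16156248 to 19712063 UMIs, and 60 cells carried a barcode that also occurred in another lane.

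Relative to all UMIs of a type, EC stood highest on both sides. Summed over the 30 ligand genes, the lanes of EC held 830 to 1092 CPM, those of FSC 521 to 562 CPM and those of the 5 HPC types 78.6 to 310 CPM, with S lowest. Summed over the 24 receptor genes, the lanes of EC held 1297 to 1410 CPM, those of FSC 354 to 453 CPM and those of HPC 69.4 to 169 CPM. The lane ranges of EC, FSC and HPC did not overlap on either side. Receptor sums were above ligand sums in every lane of EC and C, and below them in every lane of FSC, G, T, S and Le. Le held 184 to 208 CPM of ligands and 116 to 146 CPM of receptors. By gene, and with E set aside, 20 of the 54 members were highest in EC, 15 in FSC, 6 in L, 4 in T, 3 each in C, G and Le and 0 in S. Some of these places rest on few UMIs, such as Epha8, which had 2 UMIs in T. The same count was not made over all genes, so the places are not shown to be particular to the members. Levels are shares of all UMIs, of which Gh1 held 300400 CPM in S, Prl 270400 CPM in L and Pomc 201700 CPM in C. How far this lowered the sums and places of these types was not tested.

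**Figure D1:**
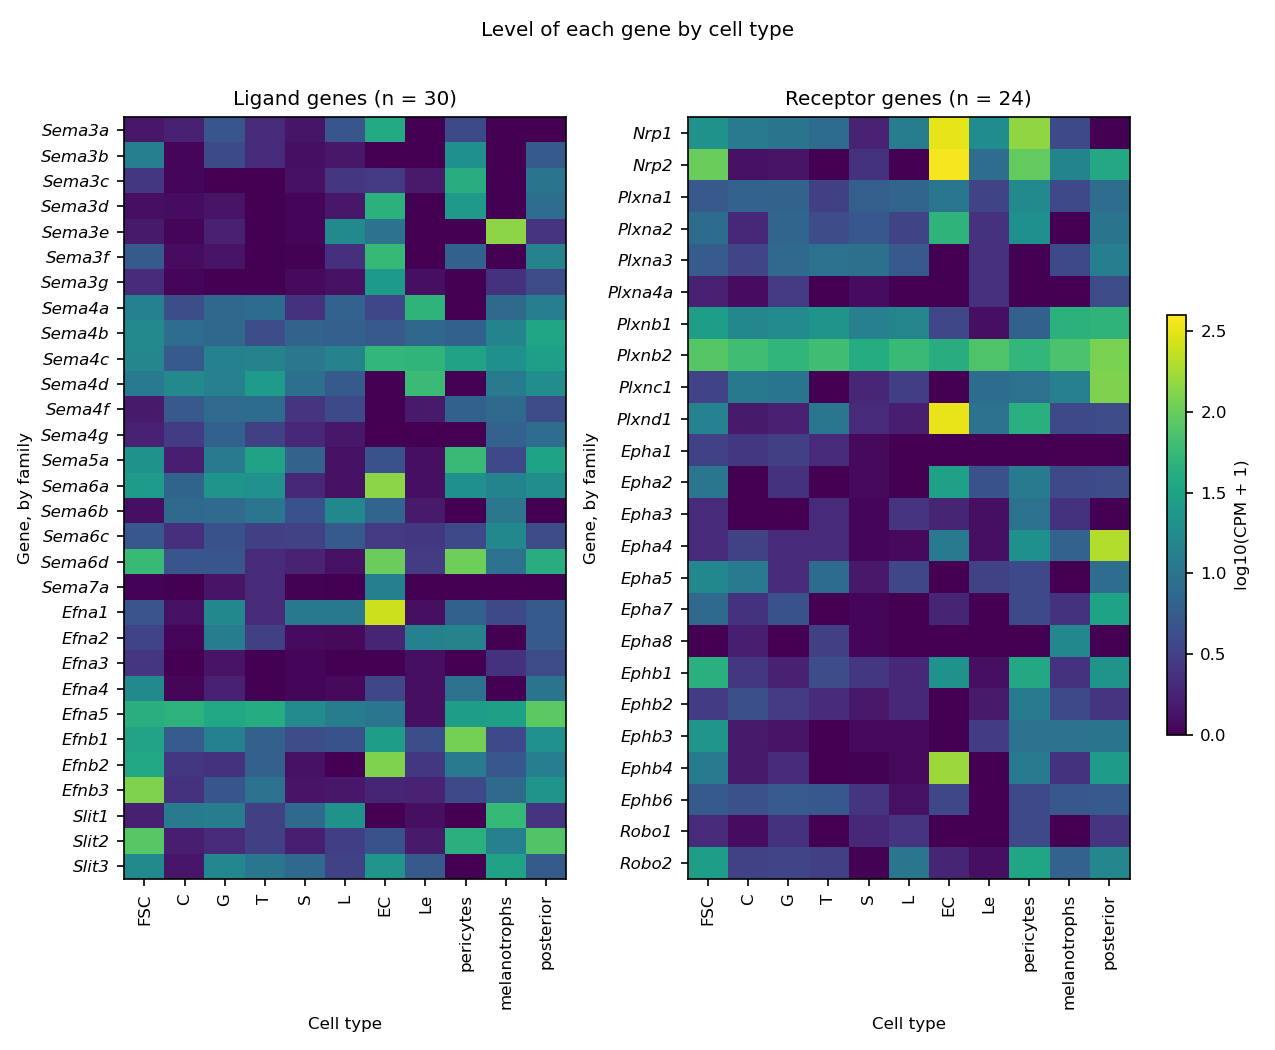
Level of each of the 54 genes (rows, by family) in 11 groups of cells (columns), as log10(CPM + 1), where CPM is UMIs per 1000000 UMIs of the group, with ligands on the left, receptors on the right. EC are brightest for Nrp1, Nrp2, Plxnd1 and Efna1, FSC for Efnb3, Nrp2 and Slit2, and Plxnb2 is present in every column.

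**Figure D2:**
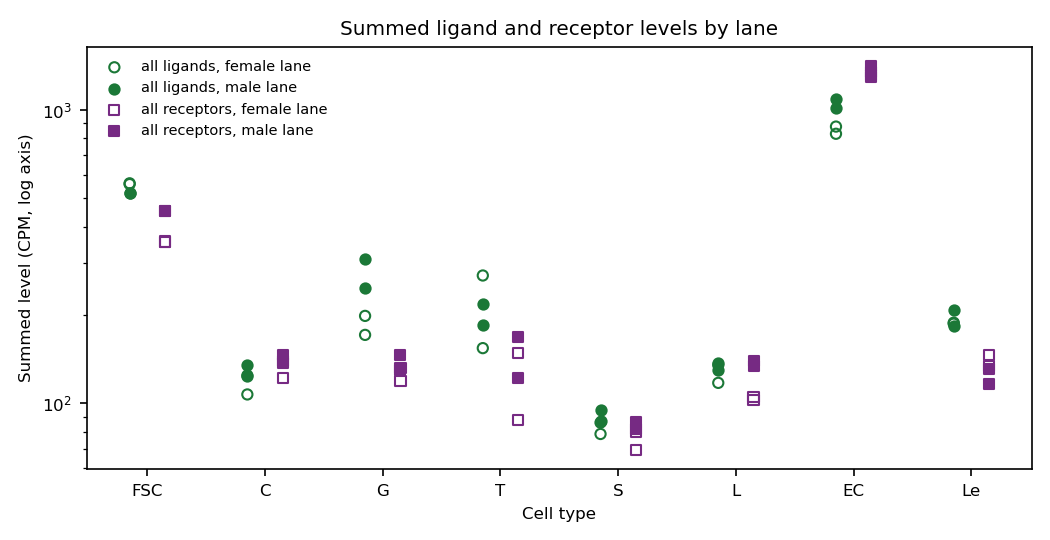
Summed CPM (log axis) of the 30 ligand genes (circles) and 24 receptor genes (squares) in 8 cell types, 1 point per lane, open for female and filled for male lanes. The receptor lanes of EC lie between 1297 and 1410 CPM, and those of S between 69.4 and 86.1 CPM.

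Of 9 semaphorin receptors tested, 4 were called higher in EC (Nrp1, Nrp2, Plxna2 and Plxnd1) and 3 lower (Plxna3, Plxnb1 and Plxnb2). Of all genes, 21.8% were called higher and 22.4% lower. Both members of the vascular pair Efnb2 and Ephb4 were called higher. Nrp2, a neuropilin that also binds vascular growth factors, was at 417 and 331 CPM in the female lanes of EC and at 337 and 350 CPM in the male lanes. Nrp1, its paralog, was at 264 and 357 CPM in the female lanes and 319 and 376 CPM in the male lanes. Plxnd1, the plexin of vessels, was at 329, 360, 280 and 340 CPM in the same order of lanes. Every one of these lanes was above every lane of FSC and HPC. Nrp2 was found in 87.1% of EC (median of 7335.5 UMIs), in 43.2% of FSC (median of 6898 UMIs) and in 0.378% of C (median of 11474 UMIs). It was found in 0 of 484 L (median of 10207 UMIs), which allows a share of cells with a UMI of up to 0.620%. With each cell thinned to 2000 UMIs, the shares were 57.6% of EC and 15.8% of FSC.

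The tests compared sums per type and sex with edgeR's quasi-likelihood test over 13614 genes, with Benjamini-Hochberg adjustment and a limit of 0.05. Of the 54 members, 44 passed the filter on low counts. A gene could pass it through the sums of a single type, so some members were tested because of the type in which they were high. The 10 that did not were Efna3, Epha1, Epha3, Epha8, Ephb2, Plxna4a, Robo1, Sema3c, Sema4g and Sema7a, and they are described by level only. A change is the log2 of a type over the mean log2 level of the types it is compared with, with its standard error (SE). Where a compared type held 0 UMIs, this value depends on the prior count of the fit, and the levels in CPM do not. With library size in place of TMM, the median change of all genes moved from 0.09 to 0.40 in FSC against HPC and from -0.22 to 0.16 in EC, and the values below are relative to the TMM scale.

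Against the mean of FSC and the 5 HPC types, 20 of 44 members were higher in EC, when 21.8% of all genes were, and 7 were lower, when 22.4% of all genes were. With library size in place of TMM the split was 20 higher and 4 lower. The median change was 0.77 over the members and -0.22 over all genes. Of the 20, 12 were ligands and 8 were receptors, and 17 were above each of the 6 pituitary types. Nrp2 was higher by 9.11 (SE 0.30, adjusted p = 1.57e-11) and Plxnd1 by 7.05 (SE 0.22, adjusted p = 5.74e-13). T and L held 0 UMIs of Nrp2, so its 9.11 depends on the prior count. As means of the sexes, its levels were 360 against 16.6 CPM, or 21.7-fold. Ephb4, the venous Eph receptor, was at 160 CPM in EC, as the mean of the sexes, against 2.03 CPM in the pituitary types (8.36, SE 0.37, adjusted p = 3.97e-10). Efnb2, its arterial ligand, was at 125 against 7.32 CPM (6.27, SE 0.25, adjusted p = 3.42e-11). Epha2, an Eph receptor of epithelia and vessels, was at 30.5 against 1.73 CPM (6.90, SE 0.74, adjusted p = 6.92e-06), with 3 of the 6 pituitary types at 0 UMIs. Lanes of EC held 129, 185, 170 and 160 CPM of Ephb4 and 129, 95.8, 145 and 123 CPM of Efnb2, in the order female, female, male, male. The lowest of these lanes was above the highest lane of FSC, 11.9 CPM for Ephb4 and 41.3 CPM for Efnb2.

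The promoters of Ephb4, Epha2 and Ephb1 are shown, since these are the Eph receptors that were called higher in both EC and FSC. The sequences come from RefSeq (GRCr8, a later assembly than the one used for counting) and hold the 250 bases before the start of the gene, on the strand of the gene. Capitals mark each match to GGAAGT, the core of ETS factor motifs, read on either strand, and Ephb1 has none.
Ephb4, chr12:24988389-24988638 (- strand): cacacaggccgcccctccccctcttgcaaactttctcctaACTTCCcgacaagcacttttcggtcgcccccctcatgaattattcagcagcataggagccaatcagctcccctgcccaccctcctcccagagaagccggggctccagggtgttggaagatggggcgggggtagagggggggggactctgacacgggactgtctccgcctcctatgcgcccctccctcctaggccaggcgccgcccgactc
Epha2, chr5:158888379-158888628 (+ strand): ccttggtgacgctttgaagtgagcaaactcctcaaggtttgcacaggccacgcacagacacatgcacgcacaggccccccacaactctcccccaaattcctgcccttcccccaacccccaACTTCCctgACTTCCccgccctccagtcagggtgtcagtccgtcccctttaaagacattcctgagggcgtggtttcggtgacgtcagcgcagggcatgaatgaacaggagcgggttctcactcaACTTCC
Ephb1, chr8:111823760-111824009 (- strand): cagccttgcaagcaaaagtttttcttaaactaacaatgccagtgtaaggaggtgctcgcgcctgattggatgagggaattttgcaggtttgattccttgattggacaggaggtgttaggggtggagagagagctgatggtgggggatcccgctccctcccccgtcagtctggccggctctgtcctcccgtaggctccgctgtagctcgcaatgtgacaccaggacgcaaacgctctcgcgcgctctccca
Entries were found for 42 of the 54 members. GGAAGT was in 3 of the 17 promoters of members called higher in EC that had an entry (17.6%), in 6 of all 42 (14.3%) and in 19.2% of 33469 promoters. The longer CCGGAAGT, which overlaps it, was in 0 of the 42 and in 3.10% of all. The other 6 motifs searched, on both strands, were CCGGAA (7.14% of members, 12.6% of all promoters), AACAAT (4.76% and 10.3%), AACAATGG, which holds the letters of the one before (0 members and 0.917%), CACGTG (7.14% and 5.59%), ATGCATAA (0 members and 0.46%) and TGACGTCA (2.38% and 1.59%). A match is a description of letters only.

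Class 3 semaphorins, the secreted class, were the ligands that rose most often in EC. Of 7 members, 6 were tested and 5 were higher, when 21.8% of all genes were. Sema3d, Sema3f and Sema3g passed the filter on low counts only with the sums of EC, so this count is not independent of their level there. Sema3d rose by 7.55 (SE 0.66, adjusted p = 5.19e-07) on 53 UMIs in EC, and Sema3f by 7.13 (SE 0.54, adjusted p = 1.18e-07) on 63. Sema3g, on 29 UMIs, rose by 7.01 (SE 0.77, adjusted p = 5.04e-06). Sema3a, at 38.2 CPM, and Sema3e, at 8.69 CPM, passed too, but Sema3e, the ligand that binds Plxnd1 without a neuropilin, was higher in L, at 16.7 CPM. Sema3b was the exception among those tested: 0 UMIs were found in EC, which allows up to 2.61 CPM, against 12.3 CPM in FSC.

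The other members called higher in EC are given by level. The lipid-anchored Efna1 stood at 252 CPM and the transmembrane Sema6a and Sema6d, ligands of plexin A proteins, at 141 and 101 CPM. Plxna2 (47.8 CPM), Sema4c (52.2 CPM), Slit3 (21.7 CPM) and Epha4 (10.4 CPM) were above every pituitary type. Efnb1 (27.8 CPM) and Ephb1 (19.99 CPM) were below FSC, at 31.8 and 43.6 CPM. Sema7a, a lipid-anchored semaphorin that was not tested, had 14 UMIs in EC, 12.2 CPM, and at most 1.05 CPM in the pituitary types.

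Both plexins of class B and 2 of the 5 class 4 semaphorins tested, Sema4d and Sema4f, were lower in EC, when 22.4% of all genes were. Sema4c, also of class 4, was higher as given above. Plxnb1 was at 2.61 CPM in EC, on 3 UMIs, and at 12.5 to 27.0 CPM in the pituitary types (-3.09, SE 0.51, adjusted p = 0.000145), and Plxnb2 at 40.8 CPM against 39.7 to 81.2 CPM (-0.89, SE 0.23, adjusted p = 0.00491). Sema4d, the ligand of Plxnb1, had 0 UMIs in EC and was at least 5.01-fold lower than the mean of the pituitary types, at 13.1 CPM (adjusted p = 0.000138). Plxna3 (adjusted p = 0.00583), Epha5 (adjusted p = 0.0312) and Sema4f (adjusted p = 0.043) also had 0 UMIs in EC. Efna5, an ephrin of axon maps, was at 9.56 CPM in EC (-1.95, SE 0.45, adjusted p = 0.00218). The call of Epha5 was lost without female lane a, female lane b or male lane a (adjusted p = 0.0626, 0.0762 and 0.0548), and that of Sema4f without female lane a, female lane b, male lane a or male lane b (0.116, 0.072, 0.144 and 0.05003). Plxnb2 was lost without female lane b (0.0541) and with library size in place of TMM.

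**Figure D3:**
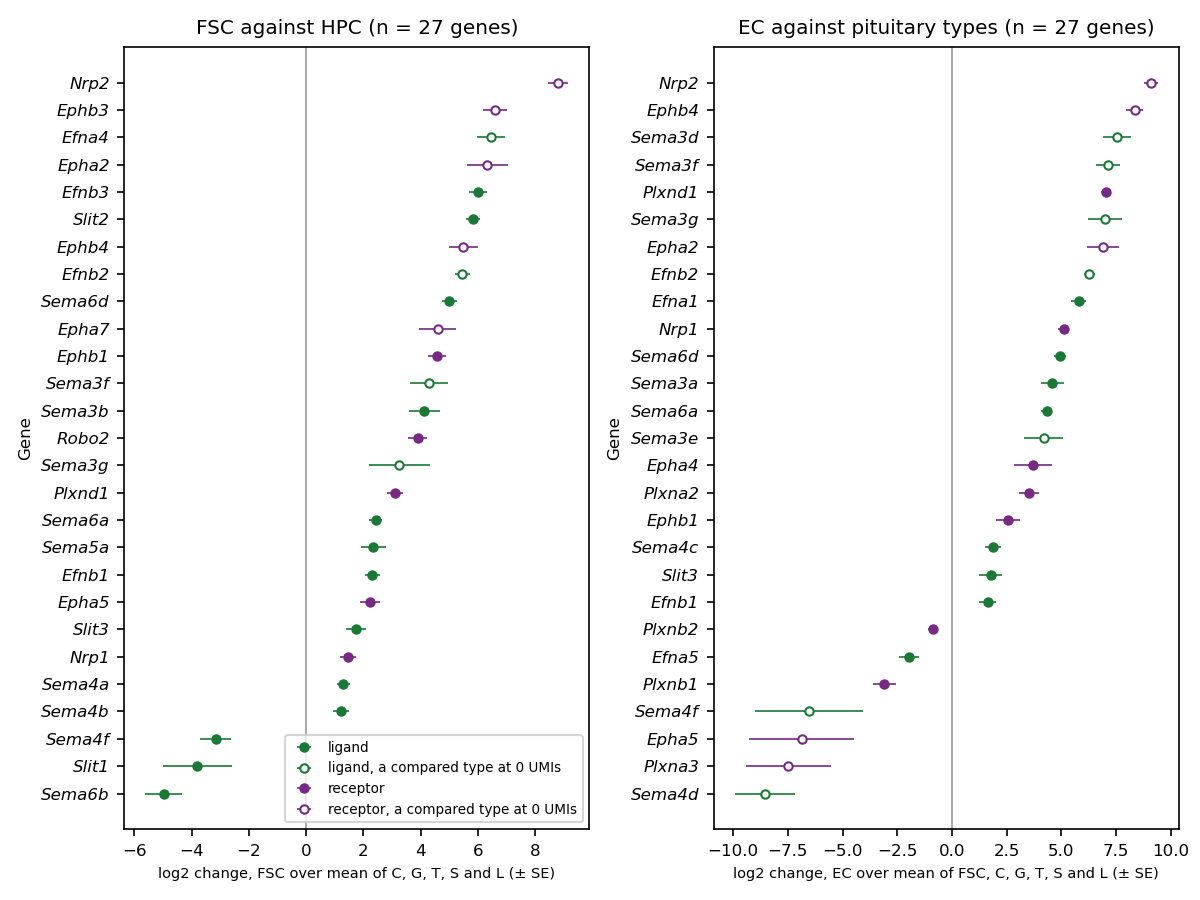
Log2 change (x axis, ± SE) of the 27 genes called in FSC against HPC (left) and of the 27 called in EC against the pituitary types (right), by edgeR at an adjusted p of 0.05; green for ligands, purple for receptors, open where a compared type held 0 UMIs. Nrp2 leads both panels, at 8.82 and 9.11, and 24 of the genes on the left and 20 on the right lie above 0.

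FSC, the S100b-positive supporting cells of the gland, were called higher for 24 of 44 members against the mean of HPC, when 28.6% of all genes were, and lower for 3, when 20.1% of all genes were. The median change was 1.49 over the members and 0.09 over all genes. The 24 were 14 ligands and 10 receptors, and 23 were above each HPC type. The exception was Sema5a, at 20.2 CPM in FSC, 30.4 CPM in T and at most 10.7 CPM in the other HPC types. The neuropilins, the ephrin-B genes and Robo2 passed without exception, as did 3 of 4 tested EphB and 3 of 4 tested EphA genes. None of the 3 tested plexin A genes, of the 2 plexin B genes or Plxnc1 passed.

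The ephrin-B side was the most FSC-weighted among the ligands. Efnb3 was at 143 and 152 CPM in the female lanes of FSC and at 96.5 and 111 CPM in the male lanes. The highest HPC lane was 1 female lane of T, at 61.6 CPM, and no other HPC lane was above 5.31 CPM. Efnb3 rose by 6.02 (SE 0.31, adjusted p = 3.12e-10) over HPC. After thinning to 2000 UMIs it was found in 21.2% of FSC and in 0 of 1886 S, and before thinning in 50.5% of FSC and 0.530% of S (medians of 6898 and 13653.5 UMIs). Efnb2 rose by 5.46 (SE 0.26, adjusted p = 2.67e-10), from a mean of 1.87 CPM in HPC to 34.6 CPM in FSC. Among the ephrin-A genes Efna4 rose by 6.47 (SE 0.50, adjusted p = 5.65e-08), at 16.1 CPM in FSC and 0.252 CPM in HPC. Efna5, in contrast, was spread over the pituitary, at 41.3 CPM in FSC, 46.6 in C, 39.8 in T, 35.3 in G, 17.0 in S and 11.6 in L, and the lane ranges of FSC, C, T and G overlapped.

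Of 8 Eph receptors tested, 6 were called higher in FSC and 0 lower, when 28.6% of all genes were higher and 20.1% lower. Ephb3 was at 22.0, 23.6, 19.4 and 25.9 CPM in the lanes of FSC and at a mean of 0.212 CPM in HPC (6.60, SE 0.41, adjusted p = 1.31e-08). Epha2 (6.34, SE 0.71, adjusted p = 8.43e-06) and Ephb4 (5.49, SE 0.51, adjusted p = 6.98e-07) were at 9.46 and 10.5 CPM in FSC, both below EC. Ephb1 (43.6 CPM), Epha5 (15.2 CPM) and Epha7 (6.82 CPM) were called higher as well. Ephb6, an Eph protein without kinase activity, and Epha4 were not called. Ephb6 was at 4.39 CPM in FSC and 0.318 to 4.64 CPM in HPC, and Epha4 at 1.06 CPM in FSC and 0.0758 to 2.15 CPM in HPC.

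Slit2 and its receptor Robo2 shared a direction. Slit2 was at 92.8, 95.4, 74.4 and 74.3 CPM in the lanes of FSC, at 0.644 to 2.09 CPM in the HPC types and at 3.48 CPM in EC. It rose by 5.83 (SE 0.24, adjusted p = 1.51e-11). Robo2, at 27.5 CPM in FSC and 9.55 CPM in L, was at 0.0379 to 2.50 CPM in the other HPC types. Robo1 was not tested and stood at 1.43 CPM or less in each of the 8 types. Slit1 went the other way, at 0.687 CPM in FSC and up to 20.7 CPM in L (-3.80, SE 1.21, adjusted p = 0.0169), but its adjusted p was 1 without female lane b (-2.78). Slit3 was at 16.4 CPM in FSC and 15.3 CPM in G.

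Among the semaphorins, Sema6d (56.0 CPM), Sema6a, Sema4b (15.6), Sema4a (12.7), Sema3b (12.3), Sema3f (4.49) and Sema3g (1.16) were called higher in FSC. Sema6b fell by 4.97 on the log2 scale (SE 0.64, adjusted p = 8.60e-06), with 5 UMIs in FSC against 280 in HPC, and Sema4f by 3.16 (SE 0.55, adjusted p = 0.000227). Of their receptors, Nrp2 was at 77.8 and 69.1 CPM in the female lanes of FSC and at 127 and 117 CPM in the male lanes, whereas HPC held a mean of 0.401 CPM (8.82, SE 0.35, adjusted p = 1.23e-10). Nrp1 was at 20.03 CPM and Plxnd1 at 13.2 CPM. Plxnb2, a receptor of class 4 semaphorins, ranged from 39.7 CPM in S to 81.2 CPM in FSC and 74.7 CPM in Le.

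Of 5 class 4 semaphorins tested, 3 were called higher in Le (Sema4a, Sema4c and Sema4d). Sema4b, at 6.47 CPM in Le, and Sema4f, at 0.540 CPM, were not called. Sema4d, which immune cells use to stimulate one another, was at 44.6 and 63.4 CPM in the female lanes and 67.5 and 52.7 CPM in the male lanes, against 13.1 CPM as the mean of the pituitary types (2.70, SE 0.19, adjusted p = 1.44e-08). Sema4a was at 48.3 CPM (3.61, SE 0.21, adjusted p = 4.88e-10) and Sema4c at 49.1 CPM. The lanes of Le were above each lane of FSC and HPC for these 3 genes. In all, 11 of 44 members were higher in Le, when 27.2% of all genes were, and 7 were lower, when 28.9% of all genes were. Scaled by library size in place of TMM the split was 10 higher and 13 lower. As means of the sexes, only those 3 of the 11 were above each pituitary type. On that scale Efna2 was at 13.0 CPM in Le and 15.5 CPM in G, whereas over all cells of a type it was highest in Le. Nrp2 was called higher (4.28, SE 0.65, adjusted p = 7.42e-05) at 7.55 CPM, below the 97.7 CPM of FSC (mean of the sexes). The contrast averages log levels, and T and L held 0 UMIs of Nrp2. Epha2 (3.51 CPM), Efna2 (13.0 CPM), Plxnc1 (7.28 CPM), Plxnd1 (8.63 CPM), Ephb3 (1.89 CPM), Nrp1 (17.3 CPM) and Plxnb2 (74.7 CPM) were the others. Lower members had few UMIs in Le: 1 each of Efna5, Plxnb1, Sema6a and Sema5a, 2 of Sema6b, 5 of Plxna3 and 0 of Ephb6. Without female lane a, the calls of Plxna3, Ephb3, Sema5a and Sema6b were lost (adjusted p = 0.138, 0.118, 0.0536 and 0.0502). Without female lane b, Sema6b was lost (0.0556), without male lane a Plxna3 and Sema6b (0.0753 and 0.16), and without male lane b Plxna3 and Ephb3 (0.18 and 0.0778).

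Between the HPC types, 39 tests passed, over 25 members, and 23 of the 39 were higher in the type named. The share of all genes is given beside the count of each type. C were higher for 4 members (12% of all genes) and lower for 4 (8.25%). Plxnc1, the receptor of Sema7a, was at 10.2 CPM in C (3.43, SE 0.80, adjusted p = 0.00772), with G at 9.27 CPM, and Epha5 at 10.6 CPM (2.41, SE 0.40, adjusted p = 0.000566). Efna5 (0.84, SE 0.23, adjusted p = 0.0192) and Sema6d (1.75, SE 0.46, adjusted p = 0.0129) were the others. Slit3 was lowest in C, on 4 UMIs (-4.03, SE 0.71, adjusted p = 0.000774), and Sema5a (-3.02, SE 0.94, adjusted p = 0.0323), Sema4c (-1.67, SE 0.43, adjusted p = 0.0118) and Plxna3 (-1.57, SE 0.43, adjusted p = 0.0174) fell too. Of these, Sema5a was lost without female lane b or male lane a (adjusted p = 0.0819 and 0.144), Plxna3 without male lane a (0.0989) and Sema6d without male lane b (0.0731).

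G, which make the gonadotropins, were higher for 7 members (8.58% of all genes). By means of the sexes, 5 of the 7 were above each other HPC type. On that scale Sema6a (20.4 against 22.6 CPM) and Sema5a (13.3 against 23.5 CPM) were below T. Efna2 led, at 11.4 CPM (5.05, SE 0.78, adjusted p = 0.000318), followed by Epha7 on 10 UMIs (4.89, SE 1.07, adjusted p = 0.00897). Sema6a, Slit3, Efna1, Sema5a and Efnb1, at 21.4, 15.3, 15.3, 10.7 and 12.8 CPM over all cells of G, had adjusted p-values from 2.57e-05 to 0.0438. Lower calls numbered 0 (4.02% of all genes), with 1 member at an unadjusted p below the limit and 0 calls by DESeq2. Efna1 and Efnb1 were lost without female lane b (adjusted p = 0.0955 and 0.0686), and Sema5a without male lane a or b (0.128 and 0.0715).

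T, with 85 cells, were higher for 4 members (3.62% of all genes): Efnb2 on 5 UMIs (3.54, SE 0.80, adjusted p = 0.0181), Plxnd1 on 9 (3.48, SE 0.68, adjusted p = 0.00673), Sema5a on 29 (3.46, SE 0.65, adjusted p = 0.00536) and Sema6a on 19 (2.73, SE 0.46, adjusted p = 0.00219). The lanes of T held 17.6, 0, 29.2 and 52.9 CPM of Sema5a. Of the 85 cells, 15 were typed by nearest neighbours, and 14.1% of T held Vim, which is high in FSC and EC. Whether other cells were mixed into T was not tested. Without female lane b, Efnb2 and Plxnd1 were no longer called (adjusted p = 0.1735 and 0.151), nor was Efnb2 without male lane a (0.12). Lower calls numbered 0 (1.7% of all genes), with 0 at an unadjusted p below the limit and 0 by DESeq2.

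S, the growth hormone cells, were higher for 2 members (10.1% of all genes), Efna1 at 10.2 CPM (2.30, SE 0.54, adjusted p = 0.00855) and Nrp2 at 1.40 CPM (4.11, SE 0.92, adjusted p = 0.00824), and lower for 6 (5.81%). Of the 2 higher, 1 was above each other HPC type. Efna1 was below G, at 10.1 against 13.1 CPM as means of the sexes. Robo2, with 1 UMI in 1886 cells, fell by 5.37 on the log2 scale (SE 0.94, adjusted p = 0.00101), and Nrp1 by 3.16 (SE 0.48, adjusted p = 0.000351), at 0.796 CPM against 7.33 to 11.6 CPM in the other HPC types. Epha5, Sema6a, Sema4a and Sema4f were lower at adjusted p-values of 0.0076, 0.00804, 0.00241 and 0.0377. Sema6a was lost without female lane a or b (adjusted p = 0.0537 and 0.061), Sema4f without female lane a or male lane a (0.126 and 0.141) and Epha5 without female lane b (0.0809).

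L, the prolactin cells, were higher for 6 members (9.97% of all genes) and lower for 6 (5.08%). Of the 6 higher, 5 were above each other HPC type, while Efna1 was below G and S. Sema3e parted L from the other HPC types: 105 UMIs in L, 16.7 CPM, against 5 UMIs in the other 4 types (7.41, SE 0.61, adjusted p = 2.88e-06). Melanotrophs, outside this comparison, held more of it, as given below. Robo2 (9.55 CPM, 3.69, SE 0.46, adjusted p = 5.04e-05), Sema6b (15.3 CPM, 1.61, SE 0.40, adjusted p = 0.0129) and Nrp1 (11.6 CPM, 1.55, SE 0.38, adjusted p = 0.0105) were also higher, with Efna1 (adjusted p = 0.0387) and Sema3f, on 8 UMIs (adjusted p = 0.0374). Sema6a (-4.04, SE 0.61, adjusted p = 0.000334), Sema5a, Ephb6, Efna5 and Sema4d fell, and Efnb2, at 0 UMIs, was at least 4.90-fold lower. Sema3f was lost without female lane a, male lane a or male lane b (adjusted p = 0.0543, 0.0778 and 0.126), Ephb6 without female lane a or b (0.0913 and 0.0622), Efnb2 without female lane b or male lane a (0.0551 and 0.0912), Sema5a without female lane a (0.0765) and Efna1 without female lane b (0.08515).

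Between the sexes, 20 tests within a type passed, 12 higher in males and 8 in females, over 18 members. Of all genes, 729 were called higher in males and 772 in females in FSC, and 446 and 581 in G. In S these were 1594 and 1553, and in L 1283 and 1663. The members called, males first, were 7 and 3 in FSC, 3 and 1 in G, 2 and 1 in S, and 0 and 3 in L. The tests used the 2 female and 2 male lanes of each type. A gene could pass the filter on low counts through the lanes of a single sex. For 19 of the 20 calls the lanes of the sexes did not overlap. This is a description of the same lanes that gave the calls and adds no support to them. Lanes of members that were not called could part as well, such as those of Efnb1 and Robo2 in FSC. The share of all genes whose lanes did not overlap was not computed. FSC had 10 calls among 38 members tested, when 11.6% of all genes were called. Nrp2, at 77.8 and 69.1 CPM in the female lanes and 127 and 117 CPM in the male lanes, was higher in males by 0.69 (SE 0.08, adjusted p = 1.88e-05). Plxna2 rose from 3.92 and 2.69 CPM to 9.23 and 12.2 CPM (1.66, SE 0.29, adjusted p = 0.000939), and Nrp1 from 15.2 and 15.5 CPM to 24.8 and 23.0 CPM (0.60, SE 0.15, adjusted p = 0.0173). Higher in males as well were the receptor Plxnb2 (69.8 against 90.5 CPM) and the ligand Sema6d (48.1 against 62.5 CPM). Epha2 (0.85, SE 0.24, adjusted p = 0.0314) and Sema3c, on 4 female and 27 male UMIs (2.37, SE 0.69, adjusted p = 0.0356), were the others. Sema3c passed the filter on low counts only through the male lanes. Efnb3 was higher in females, at 143 and 152 against 96.5 and 111 CPM (-0.55, SE 0.08, adjusted p = 0.000151), as were Slit2 (-0.38, SE 0.08, adjusted p = 0.00346) and Efna5 (-0.41, SE 0.12, adjusted p = 0.0349).

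In S, 3 of 19 members were called, when 26.4% of all genes were. Slit1 was at 12.8 and 12.2 CPM in the female lanes and 2.90 and 2.80 CPM in the male lanes (-2.18, SE 0.23, adjusted p = 7.69e-09). Slit3 showed the reverse, at 2.72 and 2.03 against 9.08 and 10.1 CPM (1.96, SE 0.27, adjusted p = 1.23e-06). Plxna1, a coreceptor of neuropilins, was at 2.72 and 2.77 against 7.37 and 6.33 CPM (1.26, SE 0.28, adjusted p = 0.00104). In L, 3 of 13 members were called, when 34.2% of all genes were. Of these, Slit1 and Efna1 passed the filter on low counts only through the female lanes, so the count is not independent of their level there. Slit1 was at 27.2 and 33.2 CPM in the female lanes and 1.83 and 1.02 CPM in the male lanes (-4.93, SE 0.47, adjusted p = 7.77e-13), and Efna1 at 13.1 and 14.4 against 1.83 and 4.09 CPM (-2.85, SE 0.48, adjusted p = 2.66e-06). Sema6b, at 21.6 and 11.1 against 14.6 and 11.2 CPM, was called (-0.97, SE 0.34, adjusted p = 0.0229) although its lanes overlapped.

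Scaling mattered in L. With library size in place of TMM, the median change between the sexes over all genes of L moved from 0.02 to 0.67, and the calls among members from 3 higher in females and 0 in males to 2 and 4. Slit1 and Efna1 were called under both, and Sema6b was not called with library size. Sema3e, which parted L from the other HPC types, was at 12.2 and 10.6 CPM in the female lanes and 23.8 and 31.7 CPM in the male lanes, and was not called with TMM.

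In G, 4 of 11 members were called, when 14.9% of all genes were. All 4 passed the filter on low counts only through the lanes of the sex where they were higher. The count is therefore not independent of their level in that sex. Sema4c was at 4.25 and 4.23 CPM in the female lanes and 34.2 and 27.3 CPM in the male lanes (2.54, SE 0.46, adjusted p = 0.00145), and Efna2 at 4.25 and 3.17 against 31.9 and 23.1 CPM (2.56, SE 0.50, adjusted p = 0.00225). Sema5a was at 6.37 and 5.28 against 20.5 and 21.0 CPM (1.54, SE 0.47, adjusted p = 0.0375). Efna1 was higher in females, at 18.1 and 21.1 against 11.4 and 2.098 CPM (-1.82, SE 0.57, adjusted p = 0.0433), and lost its call with library size, which left 3 higher in males and 0 in females. Behind these values stand 8, 7, 11 and 37 female and 28, 25, 19 and 6 male UMIs.

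Of the other types, 0 members were called in C, EC, Le and T, where 1.51%, 2.09%, 1.38% and 4.47% of all genes were. At an unadjusted p below the limit there were 1 in C, 2 in EC, 0 in Le and 0 in T, and DESeq2 called 0 in each. The members tested there numbered 16, 15, 6 and 1. Across all types, DESeq2 called 8 sex differences in place of 20, with 3 in FSC, 1 in G, 2 in S and 2 in L.

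Leaving out a lane cost 9 of the 18 sex differences given with a test. Nrp1 in FSC was lost without each lane in turn (adjusted p = 0.0549 to 0.0925), as was Sema5a in G (0.246 to 0.466). In FSC, Sema3c was lost without female lane a, female lane b or male lane a (0.192, 0.07645 and 0.0822), Epha2 without female lane b, male lane a or male lane b (0.26, 0.185 and 0.0524) and Efna5 without female lane a, female lane b or male lane b (0.135, 0.0761 and 0.337). In G, Efna2 was lost without female lane a, female lane b or male lane a (0.0805, 0.128 and 0.07315), Efna1 without female lane a or male lane b (0.23 and 0.38) and Sema4c without female lane b (0.0612). Sema6b in L was lost without female lane a or male lane b (0.515 and 0.133). The 20 calls became 11 without female lane a, 11 without female lane b, 15 without male lane a and 11 without male lane b.

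**Figure D4:**
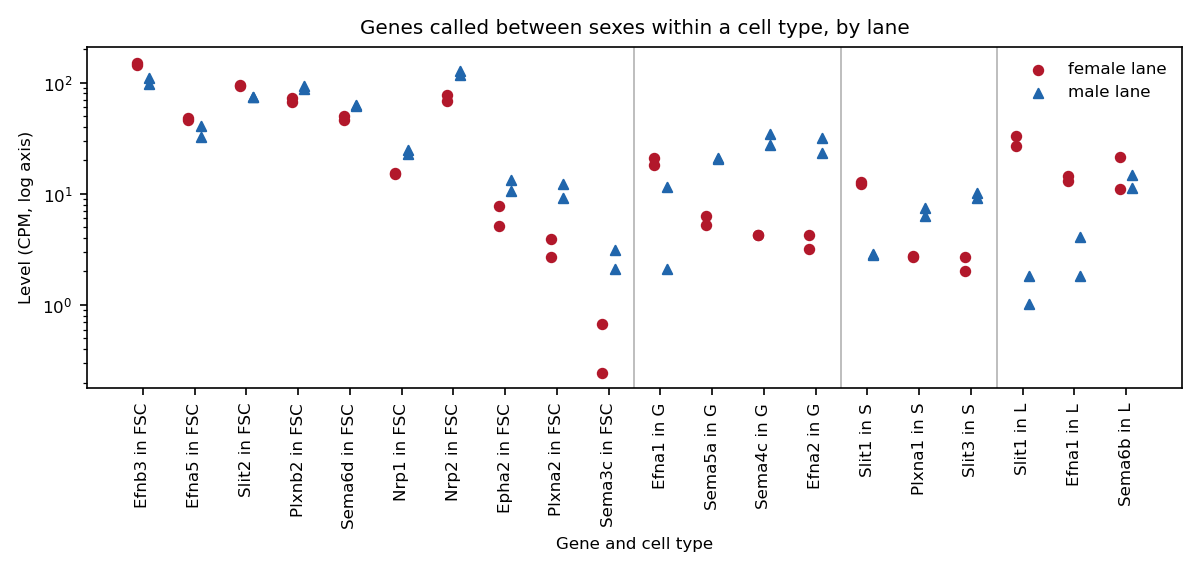
CPM (log axis) of the 20 gene and cell type pairs called between the sexes, by lane, with red circles for female and blue triangles for male lanes; grey lines part FSC, G, S and L. The lanes of the sexes overlap for Sema6b in L alone among the 20, and the gap is widest for Slit1 in L, at 27.2 and 33.2 against 1.83 and 1.02 CPM.

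Whether the sex difference was the same in FSC, C, G, T, S and L was tested for 41 members, and 10 differed between types, when 25.6% of all genes did. Slit1 was first (F = 20.9, adjusted p = 3.35e-09): the female lanes were higher in S and L, whereas in G the lanes held 9.56 and 6.34 CPM in females and 15.96 and 21.0 CPM in males. Efna1, Nrp1, Slit3, Efna5, Sema4c, Sema5a, Plxnc1, Efna2 and Efnb3 followed. Plxnc1 was at 11.7 and 13.7 CPM in the female lanes of G and 2.28 and 2.098 CPM in the male lanes, and at 6.76 and 10.3 against 11.0 and 11.6 CPM in C. Nrp1, higher in male FSC, was at 12.7 and 10.6 CPM in female G and 4.56 and 2.098 CPM in male G. The 10 became 5 without female lane a, 8 without female lane b, 6 without male lane a and 5 without male lane b.

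**Figure D5:**
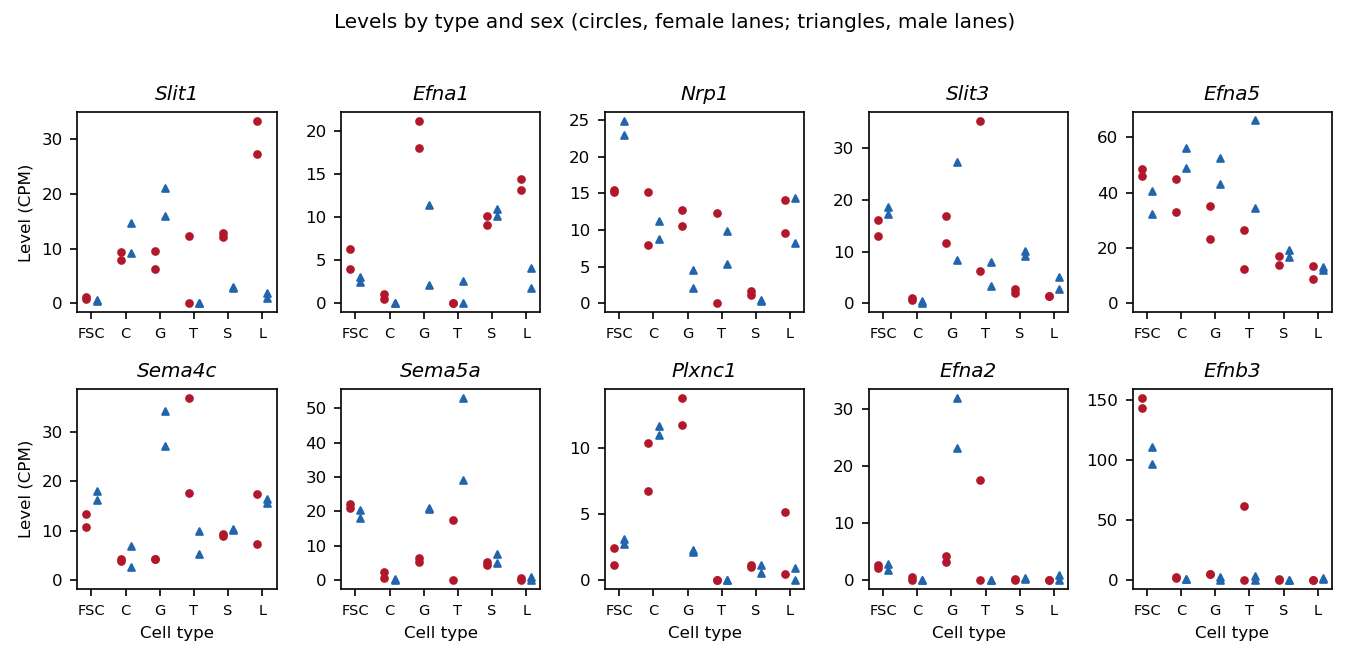
CPM (linear axis from 0) of the 10 genes whose sex difference differed between types by edgeR, in FSC and the 5 HPC types, 1 point per lane; circles are female and triangles male lanes. Slit1 is high in the female lanes of S and L and in the male lanes of G, and the single high point of Efnb3 in T is 1 female lane of 17 cells.

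FSC fell into 4 groups when clustered without the members and the marker genes, and 1566 and 698 of 2314 cells made up the largest. The first was led by Gpha2, Guca2b, Tagln and Apoe, the second by Fam46b, Epcam, Cldn3 and Rab25, and their shares by lane ran from 65.5% to 70.2% and from 27.9% to 31.5%. Members differed between them, as a description with no test. Epha2 was at 3.19 CPM in the first and 21.1 CPM in the second, where its lanes ran from 12.6 to 28.0 CPM. Nrp2 was at 78.1 and 141 CPM, and Epha7 at 4.14 and 11.2 CPM. Efnb3 was at 158 and 75.8 CPM, Robo2 at 35.8 and 14.4 CPM, and Sema4a at 15.9 and 7.13 CPM. Ephb3, at 22.4 and 24.4 CPM, hardly parted them.

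Cells outside the 9 types were few and came from unequal lanes, so their values carry an exact 95% Poisson interval that covers counting error only, and no test was run. In 59 posterior pituitary cells, 55 of them male, Epha4 was at 200 CPM (167 to 237) and Plxnc1 at 125 CPM (99.4 to 155), when no used type held over 10.4 CPM of either. In 60 melanotrophs, 56 of them male, Sema3e was at 141 CPM (115 to 171) and Slit1 at 53.8 CPM (38.3 to 73.5), which were both highest in L among the 8 types. In 51 cells that the study's markers Col1a1, Dcn and Lum set as pericytes, Nrp1 was at 145 CPM (109 to 190), Efnb1 at 112 CPM (80.7 to 153), Sema6d at 104 CPM (73.7 to 143), Sema5a at 54.9 CPM (33.5 to 84.7) and Sema3c at 41.1 CPM (23.0 to 67.9). Doublets and outliers were not removed from these groups outside the 9 types.

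Co-receptors, effectors and the neighbouring netrin system were followed as 5 lists of 96 genes, of which 83 were tested. Against HPC, 39 were higher in FSC and 12 lower (28.6% and 20.1% of all genes), and against the pituitary types 37 were higher in EC and 11 lower (21.8% and 22.4%). The median changes of the lists together were 0.68 and 0.70, beside 0.09 and -0.22 over all genes. In FSC, Mical1, an oxidase downstream of plexins, rose by 5.96 (SE 0.86), Rnd1, a small GTPase that binds plexins, by 5.51 (SE 0.17), from 6.26 to 154 CPM, and Met, a receptor that associates with plexin B, by 5.04 (SE 0.49), with Ngef, an exchange factor of EphA receptors, by 4.998 (SE 0.43). Nell2, a ligand of Robo3, fell by 5.69 (SE 0.64), from 66.8 to 0.871 CPM, as did Mical2 by 5.52 (SE 0.52), Crmp1 by 5.34 (SE 0.30) and Unc5a by 4.83 (SE 0.48). In EC, Kdr, a vascular growth factor receptor that pairs with neuropilins, rose by 11.22 (SE 0.26), from 0.650 to 1383 CPM, with Itga1 by 8.39 (SE 0.25), Arhgef15 by 6.19 (SE 0.37) and Fes by 5.77 (SE 0.91). Pak1, a kinase of the actin skeleton, and Gpc1, a proteoglycan that binds Slits, had 0 UMIs in EC and were at least 14.1-fold and 5.71-fold lower than the pituitary types, and Vav2 and Chl1 fell by 4.17 (SE 0.82) and 4.02 (SE 0.52). Adjusted p-values of the genes named ran from 1.43e-13 to 0.00329. The netrin and RGM list was lower rather than higher in the median in EC, at -1.94, with 4 of 13 tested genes higher and 2 lower, and the co-receptor list was at -0.52, with 3 of 11 higher and 2 lower. In Le, 33 of the 83 were higher and 21 lower (27.2% and 28.9% of all genes).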

How the data were processed

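The file holds UMI counts of 30058 genes in 7861 cells. Per the labels and the study's methods, the authors counted with Cell Ranger 2.1 against an NCBI rat annotation extended at 3′ ends without regard to strand, and pooled the lanes after equalizing mapped reads, so these deposited counts are not raw reads. Lanes were matched to sex by the cells per lane that the study gives. Cells were classified as in the study: Otsu thresholds of marker genes per sex, nearest neighbours for 188 used cells, and removal of 207 cells of more than 1 type, 189 doublets, 275 mitochondrial and 328 depth outliers. Hba-a1 and Hba-a2 of the marker list are Hba1 and Hba2 in the file. UMIs were summed per type and sex (16 libraries) or lane and tested with edgeR 4.0.16 (quasi-likelihood, TMM, filterByExpr with a minimum count of 10, Benjamini-Hochberg), E left out because globin was 96.8% of its UMIs. The fits were also run on counts simulated from a profile shared by all types. The types differ in these data, so that run cannot vouch for the comparisons given here. DESeq2 1.42.0, library size, no filter, other cell selections, a limit of 0.001 and leaving out each lane were alternatives. FSC were clustered with scanpy 1.11.5 (Leiden). Promoters came from RefSeq GRCr8. Test values are given for up to 8 members per comparison and direction by size of change. Members, partner lists and markers were chosen with earlier results of these data known. Intervals and limits (3 counts) cover counting error only.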

Additional observations from a re-analysis of the deposited data

Results flagged for a closer look

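For 10 members the difference between the sexes was not the same in FSC, C, G, T, S and L, by edgeR's quasi-likelihood test of the interaction of sex and type over all genes. They were 24.4% of the 41 members tested, beside 25.6% of all genes. All values are CPM by lane, with the 2 female lanes first. Slit1 (adjusted p = 3.35e-09) was at 27.2, 33.2, 1.83 and 1.02 CPM in L and at 7.88, 9.40, 9.13 and 14.6 CPM in C. Efna1 (adjusted p = 0.000339) was at 13.1, 14.4, 1.83 and 4.09 CPM in L and at 9.14, 10.2, 10.1 and 10.96 CPM in S. Both were female-weighted in L and not in the other type named. Nrp1 (adjusted p = 0.00155) was at 15.2, 15.5, 24.8 and 23.0 CPM in FSC and at 1.75, 1.11, 0.263 and 0.487 CPM in S. Slit3 (adjusted p = 0.0017) was at 2.72, 2.03, 9.08 and 10.1 CPM in S, and its lanes in G overlapped, at 17.0, 11.6, 27.4 and 8.39 CPM. Efna5 (adjusted p = 0.00253) was lower in the male lanes of FSC and higher in those of G, which were at 43.3 and 52.4 CPM against 35.1 and 23.2 CPM. Sema4c (adjusted p = 0.00499) was higher in the male lanes of G, whereas the lanes of T, with 85 cells, were at 17.6, 37.0, 5.30 and 9.92 CPM.

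Sema5a (adjusted p = 0.0104) was higher in the male lanes of G and at 22.0, 20.9, 20.4 and 18.1 CPM in FSC. Plxnc1 (adjusted p = 0.039) was higher in the female lanes of G, and its lanes in C did not overlap in the other direction. Efna2 (adjusted p = 0.0454) was higher in the male lanes of G and at 2.69, 2.02, 1.73 and 2.89 CPM in FSC. Efnb3 (adjusted p = 0.0494) was higher in the female lanes of FSC, and 1 female lane of T, of 17 cells, was at 61.6 CPM while the other lanes of T were at 0, 0 and 3.31 CPM. Sex, pool and age cannot be told apart in these values.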

How the results depend on the processing

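The lanes are technical replicates of 1 pool per sex, and small types (T, EC, G) rest on few UMIs. A gene at 0 UMIs there was not detected, which sets an upper limit on its level and does not show that it is absent. No paired analysis was possible because the replicate numbers of the lanes, which could pair a female with a male lane, are not known. With sums per lane and the lane as a term, calls numbered 31 in FSC, 26 in EC, 21 in Le, 55 between HPC types and 10 for the interaction, the last an alternative chosen after seeing the data. The 98 values given with a test were recomputed under the alternatives, 1165 times in all. Of these recomputations, 1001 kept the direction and call, 164 kept the direction and lost the call, and 0 turned. At the limit of 0.05, 62 of the 98 lost no call and 36 did under at least 1 alternative, 11 of these among the 18 sex differences. The cause was not tested. Of 80 counts recomputed, 68 stayed within 1.5 times. With an adjusted p below 0.001, calls fell from 27 to 17 in EC, from 18 to 8 in Le, from 39 to 8 between HPC types, from 20 to 7 between the sexes and from 10 to 2 for the interaction, as a stricter limit must. DESeq2 gave 8 sex differences. Leaving out 1 lane gave 26 to 28 calls in FSC (27 with all lanes), 24 to 26 in EC, 14 to 18 in Le, 32 to 41 between HPC types, 11 to 15 between the sexes and 5 to 8 for the interaction. Members highest in EC numbered 19 to 21 and in FSC 13 to 17.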
